A study of Mus musculus with 12 samples.

Results

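The genes described here are 30 markers of the parts of the nephron outside the proximal tubule, read for their DNA methylation in proximal tubule cells. They were taken by name from the 22367 protein coding genes of the mm9 annotation GENCODE M1. The rule uses no measured value of a gene, but the genes were chosen with earlier results of these data known. They are 4 genes of podocytes, 7 of the thick ascending limb, 6 of the distal tubule, 10 of the principal cells of the collecting duct and 3 of its intercalated cells. For each gene the promoter was the stretch from 2000 bp upstream to 500 bp downstream of the gene start, and the body was the rest of the gene. The level of a promoter or body was the share of its reads that were methylated, in percent, over CpGs read at least 5 times, given where at least 3 such CpGs were listed.

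The cells were PKD1-Het proximal renal tubule epithelial cells, isolated from a Pkd1 flox/-:TSLargeT mouse line, so every group, the controls included, was heterozygous for Pkd1 and carried the large T transgene. All were kept for 24 h under treatment. The 4 groups of 3 libraries were PBS, the control, Aza at 50 µM, an inhibitor of DNA methyltransferases, F-MTAza, in which free metformin (300 µM) and free tolvaptan (10 µM) were given with the same dose of Aza, and NP-MTAza, the same 3 drugs carried in micelles. Metformin is known as a diabetes drug that activates AMPK, and tolvaptan blocks the vasopressin receptor of the collecting duct. The libraries were made by reduced representation bisulfite sequencing, in which MspI cuts at CCGG and short fragments are read after unmethylated cytosines have been converted.

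Aza replicates 1 and 2 were left out of every comparison, because they listed 35321 and 34667 CpG rows more than once and their levels by gene did not follow the other treated libraries: over all CpGs they stood at 45.7 and 46.7%, yet both lay above every PBS library at 54.6% of 11311 promoters. Aza was thus 1 library, replicate 3, which the test assumes to vary like the other groups. The labels give 2 sets of barcodes for 4 libraries, Aza replicates 1 and 2 and NP-MTAza replicates 1 and 2, and the calls that end without them are named with the counts of calls. No source used here says that the replicates were separate cultures, so the p-values measure the spread between these libraries. The 12 libraries held 25336747 to 65817118 reads over 1860418 to 3979987 CpGs, and the median depth of a CpG was 7 to 9 reads. Over all CpGs the level was 65.6 to 71.2% in PBS and 44.4 to 47.8% in the treated libraries.

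The nephron is a chain of segments, each lined by cells with their own channels, transporters and regulators. Podocytes wrap the glomerular capillaries, the thick ascending limb takes up salt without water, the distal tubule tunes sodium, calcium and magnesium, and in the collecting duct principal cells move water and sodium while intercalated cells move acid and base. Genes that a cell type does not use are often methylated at their promoters, whereas methylation of gene bodies is common in used and unused genes alike. Methylation is copied onto new DNA by a methyltransferase, which drugs such as Aza trap. The level of methylation is not a level of transcript, and no transcript was measured in these libraries, so the labelled proximal tubule origin could not be checked here on expressed markers.

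The assay read these promoters unevenly. Of the 30 promoters, 15 had a value in all 10 libraries, 9 in some of them and 6, those of Umod, Kcnj1, Bsnd, Slc12a3, Slc4a1 and Atp6v1b1, in none. Of the 30 bodies, 28 had a value in all 10, that of Bsnd in 9 libraries and that of Cldn8 in none. The promoters valued throughout held a median of 8 CCGG sites and the other member promoters a median of 2, against 6 over all promoters of the annotation. A tested promoter rested on 15 to 2903 reads at 3 to 72 CpGs in a library, and a tested body on 19 to 5984 reads at 3 to 359 CpGs. The 95% Wilson interval of a single value, which covers counting error only, ran from 96.1 to 97.6% for the Trpm6 promoter in PBS replicate 3 and from 18.5 to 61.4% for the Aqp4 promoter in F-MTAza replicate 3.

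The range of sequence behind these values can be seen in 200 bp upstream of 5 gene starts, read from mm9 5′ to 3′ on the strand of the gene, outside annotated exons, with every CG in capitals. Umod, which encodes the main protein of normal urine, is shown for a promoter with neither a CpG nor a CCGG in this window (chr7:126622770-126622969, minus strand), and 11.6% of all promoters held no CCGG in their whole length. Wt1 (chr2:104965176-104965375, plus strand) and Aqp3 (chr4:41045862-41046061, minus strand) are shown for windows poor in CpGs whose level fell, Trpm6 (chr19:18824187-18824386, plus strand) for a dense and almost fully methylated one, and Podxl (chr6:31514172-31514371, minus strand) for one whose CpGs differed widely from each other in PBS.
Umod: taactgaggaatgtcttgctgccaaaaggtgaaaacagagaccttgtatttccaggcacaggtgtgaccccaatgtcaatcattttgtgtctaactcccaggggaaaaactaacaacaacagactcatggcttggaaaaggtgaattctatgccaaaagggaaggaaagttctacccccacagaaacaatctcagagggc
Wt1: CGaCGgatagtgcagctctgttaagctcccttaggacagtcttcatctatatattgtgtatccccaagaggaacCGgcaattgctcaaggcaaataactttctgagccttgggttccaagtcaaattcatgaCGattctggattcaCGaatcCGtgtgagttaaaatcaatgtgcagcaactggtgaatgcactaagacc
Aqp3: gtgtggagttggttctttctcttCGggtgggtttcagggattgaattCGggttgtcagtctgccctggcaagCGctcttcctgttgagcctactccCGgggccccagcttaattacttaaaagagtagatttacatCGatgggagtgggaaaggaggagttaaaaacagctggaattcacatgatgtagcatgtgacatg
Trpm6: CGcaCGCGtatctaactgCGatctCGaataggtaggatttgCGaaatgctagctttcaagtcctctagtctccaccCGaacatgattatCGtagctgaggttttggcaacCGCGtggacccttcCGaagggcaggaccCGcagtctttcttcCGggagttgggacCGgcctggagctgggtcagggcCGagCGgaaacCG
Podxl: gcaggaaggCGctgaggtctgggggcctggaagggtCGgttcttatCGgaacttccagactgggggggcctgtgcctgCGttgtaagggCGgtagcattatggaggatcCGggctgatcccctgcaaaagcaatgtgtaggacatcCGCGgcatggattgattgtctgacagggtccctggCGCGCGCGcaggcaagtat

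In the Trpm6 window, 12 of the 17 CpGs were listed in at least 8 of the 10 libraries, and they stood at 97.2% ± 1.67 (SD, n = 3) in PBS, 66.6% ± 8.22 in F-MTAza and 69.3% ± 7.27 in NP-MTAza. The single CpGs of that window spanned 93.0 to 100% in PBS. The 12 CpGs of the Podxl window spanned 12.9 to 92.4% in PBS, and together they stood at 60.0% ± 7.60 in PBS, 48.0% ± 14.6 in F-MTAza and 40.1% ± 4.12 in NP-MTAza. The spread over the F-MTAza libraries was larger there than the difference of the means. Of the 5 CpGs of the Aqp3 window 4 were read, at 78.7% ± 2.57, 50.9% ± 1.06 and 48.8% ± 1.57, and of the 6 of the Wt1 window 5 were read, at 74.1% ± 6.53, 42.6% ± 11.1 and 49.8% ± 14.98 in the same order of groups. The windows were chosen after their values were seen, so these levels are descriptions.

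The question of the main comparisons was what 24 h of Aza, alone or in the 2 combinations, did to the methylation of these genes. Most member promoters that were highly methylated in PBS were called lower with the 2 combinations, and no member promoter was called higher. Aza alone had 1 library and larger SEs, so its fewer calls do not measure a smaller loss. Against PBS, 9 of the 15 promoters fell with F-MTAza, where 23% of 11686 promoters of all genes fell, and 11 of 15 fell with NP-MTAza, where 25% did. With Aza 4 of 15 fell, where 11.3% of all promoters did. A call needed an adjusted p under 0.05 in limma's test, adjusted over all promoters, and a loss or gain of 10 percentage points or more. No member promoter rose in any of the 3 comparisons, and over all genes 0.077% rose with F-MTAza, 0.0171% with NP-MTAza and 0.0342% with Aza. For Aza this rests on 1 library, since the 2 left out lay above every PBS library at 54.6% of 11311 promoters. With those 2 libraries added to the fit, 4 of 14 member promoters were called with Aza, all of them lower, so no member rose there either. Over all genes that fit called 1792 of 10167 promoters with Aza. How many of these rose is not given here. The study used all 3 Aza libraries and reported hypermethylation in promoters with Aza alone. The median difference of the 15 promoters was -19.6 points with F-MTAza, -25.9 with NP-MTAza and -20.9 with Aza, against -5.12, -5.73 and -6.08 points over all promoters. With only the libraries whose labels give 1 set of barcodes, which leaves NP-MTAza replicate 3 alone in its group, 7, 3 and 2 promoters fell with F-MTAza, NP-MTAza and Aza, and the 3 kept with NP-MTAza were those of Kcnj10, Trpm6 and Aqp3. The calls lost there were those of Nphs1 and Aqp2 with F-MTAza (adjusted p 0.0769 and 0.104) and of Aqp3 and Scnn1a with Aza (0.052 and 0.0533), beside 8 with NP-MTAza. In those 8, namely Wt1, Nphs1, Podxl, Calb1, Aqp2, Aqp4, Scnn1a and Cldn8, adjusted p was 0.0503 to 0.361 and the differences were still -9.86 to -44.2 points. With Aza replicates 1 and 2 added to the fit, limma called 0 of 14 member promoters with F-MTAza and 0 with NP-MTAza, as it called 0 of 10167 over all genes, while 6 and 9 members had an unadjusted p under 0.05. Leaving out 1 library gave 6 to 9 promoters with F-MTAza, 6 to 12 with NP-MTAza and 2 to 5 with Aza. The lowest count with NP-MTAza, 6, came without PBS replicates 1 or 2 or NP-MTAza replicates 1 or 3, and that with Aza, 2, without PBS replicates 1 or 2. Of the 9, 11 and 4 calls 5, 5 and 2 were kept whichever library was left out. Shares over all promoters are not given for the fits on 1 set of barcodes or with 1 library left out. The changes in count there were therefore not set against other genes.

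Those shares have to be read beside the starting levels, since a promoter with little methylation has little to lose. The 15 promoters had a median PBS level of 78.0%, against 16.2% over all promoters, and 10 of the 15 stood at 50% or more, as 29.9% of all promoters did. Among promoters at 50% or more in PBS, 8 of 10 members fell with F-MTAza beside 65% of all, 10 of 10 with NP-MTAza beside 72.5%, and 4 of 10 with Aza beside 36%. The medians within that class were -25.9, -27.5 and -25.3 points for the members and -22.01, -23.9 and -24.9 points for all promoters. Below 50% in PBS, 1 of 5 members fell with F-MTAza and 1 of 5 with NP-MTAza, beside 5.09 and 4.78% of all, and 0 of 5 fell with Aza beside 0.769%. All 3 F-MTAza libraries lay below the 3 PBS libraries at 11 of the 15 promoters, as at 40.2% of all, and the 3 NP-MTAza libraries at 12, as at 44.2%. Both held together at 11, as at 31.6% of all. Whether the members differed from other genes of a like starting level was not tested.

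**Figure D1:**
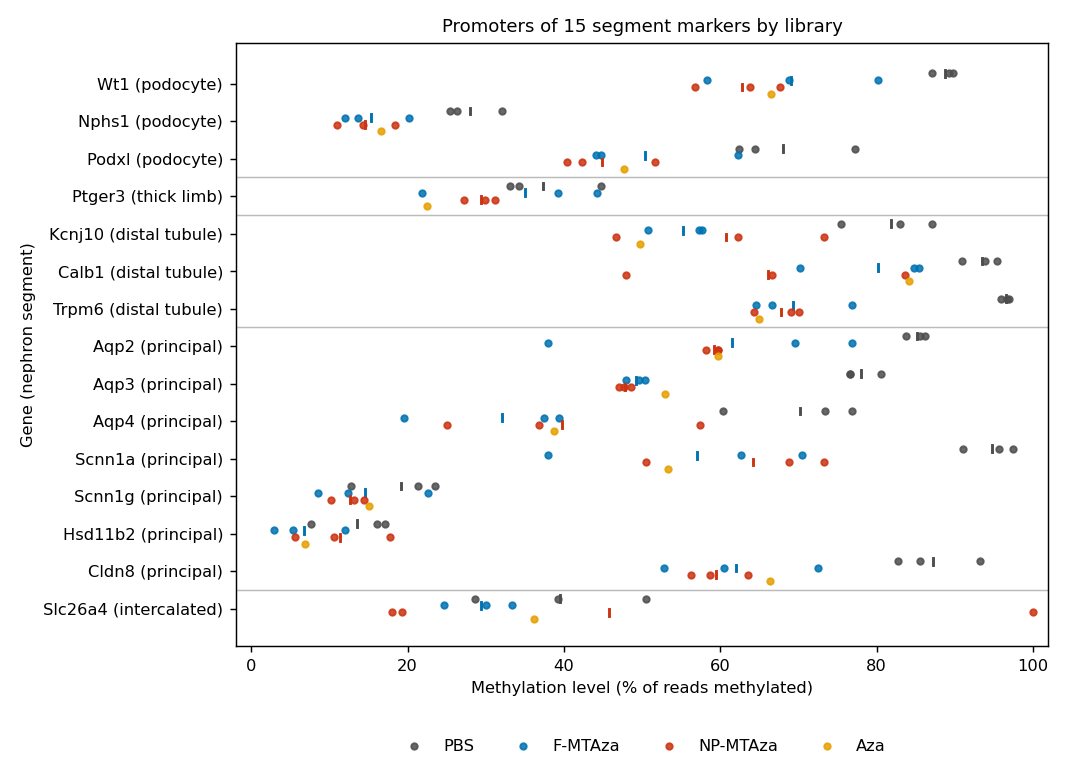
Methylation level in percent (x axis) of the 15 marker promoters valued in all 10 libraries (y axis), with a point per library, colours for the groups and a vertical tick at each group mean. At Trpm6, Aqp3, Scnn1a and Cldn8 the treated points lie to the left of all PBS points. At Scnn1g, Hsd11b2 and Ptger3 all points lie below 50% and the F-MTAza points overlap those of PBS.

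Gene bodies moved more evenly. Of the 28 bodies 25 fell with F-MTAza, where 84.7% of the 15529 bodies of all genes fell, 26 fell with NP-MTAza, where 87.2% did, and 22 fell with Aza, where 80.2% did. With only the libraries of 1 set of barcodes 25, 23 and 22 bodies fell, and the NP-MTAza calls lost were those of Ptger3, Aqp4 and Krt7. No member body rose, and over all genes 0.103% rose with F-MTAza and 0.00644% with each of the other 2 treatments. The median difference was -23.7 points with F-MTAza and -27.1 with NP-MTAza for the members and -25.8 and -27.3 points for all bodies. Among bodies at 50% or more in PBS, 25 of 26 members fell with F-MTAza, 25 with NP-MTAza and 22 with Aza, beside 93.4, 95.8 and 89% of all. Below 50%, 0 of 2 fell with F-MTAza, 1 with NP-MTAza and 0 with Aza, beside 28.5, 32.1 and 23.3% of all. At 25 of the 28 bodies every F-MTAza and NP-MTAza library lay below every PBS library, as at 81.5% of all bodies. Taken singly, F-MTAza did so at 25, as at 83.8% of all, and NP-MTAza at 25, as at 87.9%. The members' median PBS level, 78.0%, was also close to the 77.3% of all bodies.

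**Figure D2:**
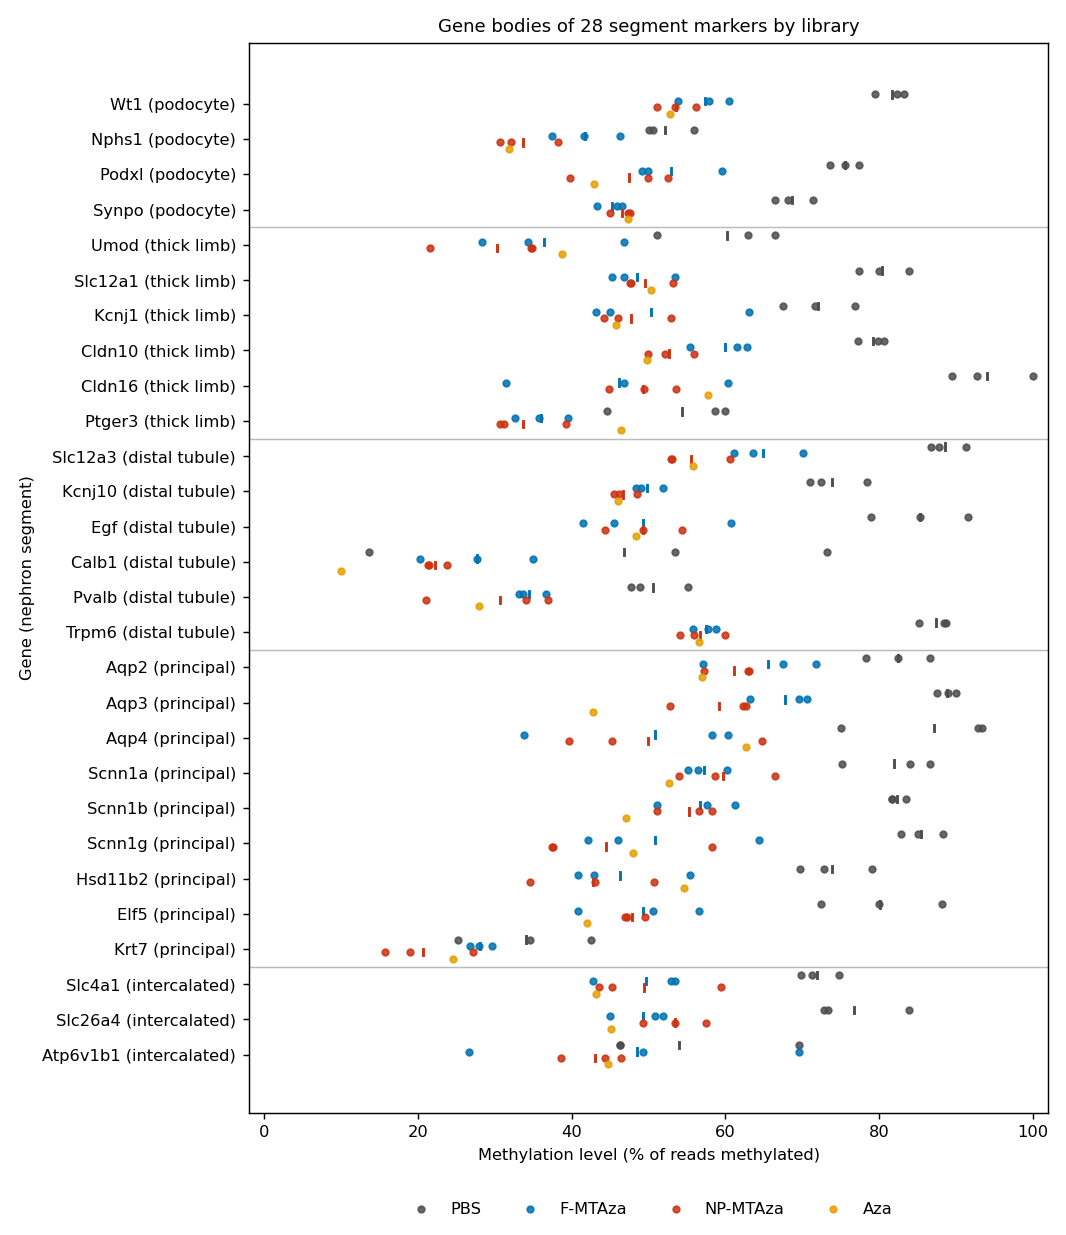
Methylation level in percent (x axis) of the 28 marker gene bodies valued in all 10 libraries (y axis), drawn as for the promoters with a point per library and a tick at each group mean. Most PBS points lie between 65 and 95% with the treated points apart from them on the left, while both combinations overlap PBS at Calb1, Krt7 and Atp6v1b1.

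**Figure D3:**
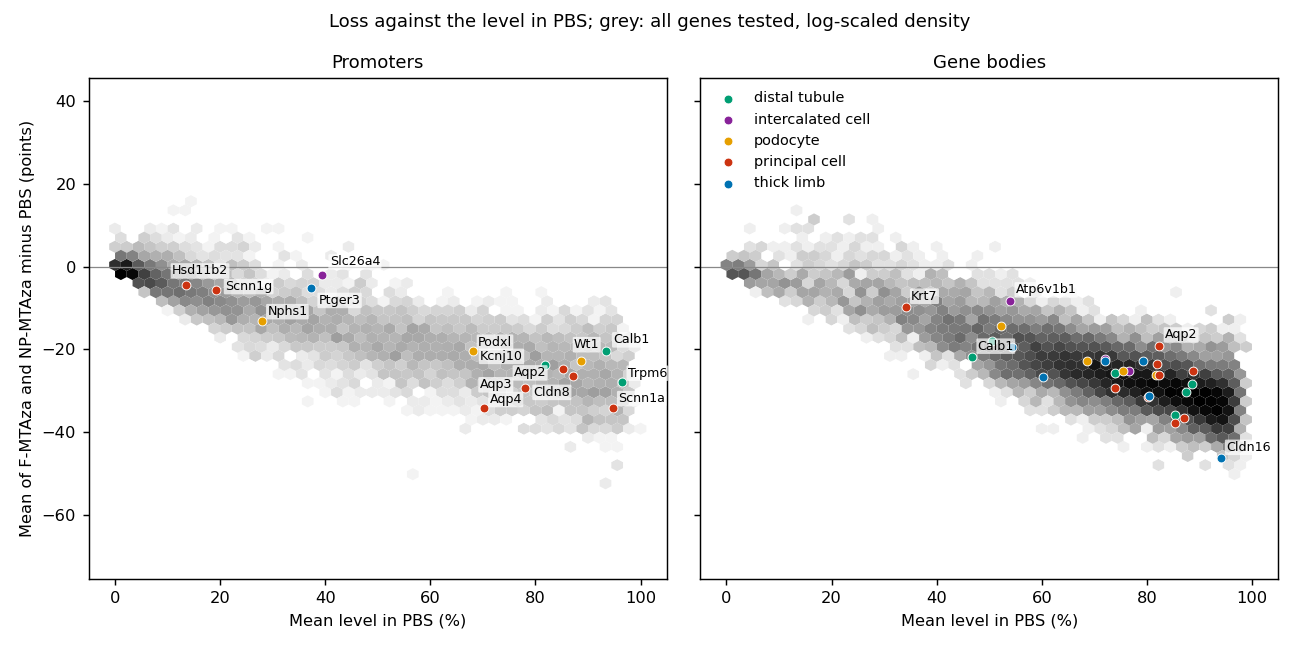
Mean level in PBS in percent (x axis) against the mean of the 6 F-MTAza and NP-MTAza libraries minus PBS in percentage points (y axis), for promoters on the left and bodies on the right, with all genes as a grey density on a log scale and the marker genes as points coloured by segment. The marker promoters stretch from 13.6 to 96.5% in PBS, and the marker points lie within the grey band of all genes at their own PBS level.

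Among the podocyte genes, the promoters of Wt1, Nphs1 and Podxl all fell with NP-MTAza and those of Wt1 and Nphs1 with F-MTAza, while none was called with Aza. Wt1 (chr2:104966686-105013773, plus strand) encodes a zinc finger transcription factor that podocytes need. Its promoter stood at 89.2, 87.1 and 89.8% in PBS, 80.2, 68.8 and 58.3% in F-MTAza, 63.8, 67.7 and 56.7% in NP-MTAza and 66.5% in the Aza library. All 7 treated libraries lay below the 3 PBS libraries, and F-MTAza replicate 1 was the nearest to them. The level fell by 19.6 points (SE 5.37, adjusted p = 0.0189) with F-MTAza and fell by 26.0 points (SE 5.37, adjusted p = 0.00568) with NP-MTAza, and differed by -22.2 points (SE 7.60, adjusted p = 0.0724) with Aza. The F-MTAza call ended without PBS replicate 1, F-MTAza replicate 2 or F-MTAza replicate 3, where adjusted p ran from 0.00855 to 0.0555 over the 9 fits that each left out 1 library. It also ended in a shorter promoter from 1000 bp upstream, with a difference of -8.51 points. Another coding Wt1 transcript starts 467 bp downstream of the gene start, inside the promoter used here.

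Nphs1 (chr7:31243334-31272242, plus strand) encodes nephrin, the main protein of the slit diaphragm. Its promoter, which lies over the neighbouring gene Kirrel2, was the least methylated of those that fell, at 26.3, 32.1 and 25.5% in PBS, 12.0, 20.2 and 13.7% in F-MTAza, 10.9, 18.4 and 14.2% in NP-MTAza and 16.6% in the Aza library. It fell by 12.7 points (SE 3.04, adjusted p = 0.0427) with F-MTAza and fell by 13.4 points (SE 3.04, adjusted p = 0.0318) with NP-MTAza, and the Aza difference was -11.4 points (SE 4.30, adjusted p = 0.246). Both calls were fragile. Adjusted p with 1 library left out ran from 0.0357 to 0.124 for F-MTAza, where the call remained only without F-MTAza replicate 2, and from 0.0299 to 0.112 for NP-MTAza, where the call was lost without PBS replicates 1 or 2 or NP-MTAza replicates 1 or 3.

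Podxl (chr6:31469488-31513981, minus strand) encodes podocalyxin, the charged glycoprotein that coats podocyte foot processes. The level at its promoter was 64.4, 77.2 and 62.4% in PBS, 62.2, 44.1 and 44.8% in F-MTAza, 42.4, 51.7 and 40.4% in NP-MTAza and 47.7% in the Aza library. F-MTAza replicate 1 lay just under the lowest PBS library and the other treated libraries lay further below. The level fell by 23.2 points (SE 6.21, adjusted p = 0.0249) with NP-MTAza, and differed by -17.7 points (SE 6.21, adjusted p = 0.0712) with F-MTAza and by -20.3 points (SE 8.78, adjusted p = 0.187) with Aza. The NP-MTAza call was lost without PBS replicate 2 or NP-MTAza replicates 1 or 3 (adjusted p 0.0147 to 0.0907), and an F-MTAza call appeared without F-MTAza replicate 1.

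All 4 podocyte bodies fell with each treatment. The Wt1 body stood at 82.4, 83.2 and 79.5% in PBS, 60.5, 57.9 and 53.8% in F-MTAza, 53.5, 56.2 and 51.0% in NP-MTAza and 52.7% in the Aza library, and the Podxl body at 77.4, 75.5 and 73.6% in PBS, 59.6, 49.9 and 49.2% in F-MTAza, 39.8, 52.5 and 49.9% in NP-MTAza and 42.9% in the Aza library. Neither gene had a treated library near its PBS range. Synpo (chr18:60753627-60819796, minus strand) encodes synaptopodin, which binds the actin of the foot processes, and its body stood at 68.1, 66.4 and 71.3% in PBS, 45.9, 46.5 and 43.3% in F-MTAza, 47.3, 47.5 and 44.9% in NP-MTAza and 47.3% in the Aza library. That is 68.6% ± 2.48 (SD, n = 3) in PBS with all treated libraries within a narrow range below it. The Synpo promoter was read in 4 libraries only, at 79.2% in 1 PBS library and 76.3 and 82.0% in 2 NP-MTAza libraries, and the first coding transcript of that gene starts 11823 bp downstream of the gene start used. The Nphs1 body stood lower, at 50.6, 50.1 and 55.9% in PBS, 46.3, 37.4 and 41.6% in F-MTAza, 32.1, 38.2 and 30.7% in NP-MTAza and 31.8% in the Aza library, and its F-MTAza difference, where the level fell by 10.4 points (SE 3.35, adjusted p = 0.0221), was lost without PBS replicate 3 or F-MTAza replicate 2 (adjusted p 0.0151 to 0.0804).

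Of the 7 thick limb genes, 1 promoter, that of Ptger3, could be tested and it did not pass the test in any comparison, while all 6 tested bodies fell with both combinations. Ptger3 (chr3:157229856-157307722, plus strand) encodes a prostaglandin E receptor that dampens salt and water uptake. Its promoter stood at 33.1, 34.2 and 44.8% in PBS, 39.2, 44.2 and 21.8% in F-MTAza, 27.3, 29.9 and 31.1% in NP-MTAza and 22.5% in the Aza library, with F-MTAza replicates 1 and 2 inside the PBS range. The differences were -2.29 points (SE 5.86, adjusted p = 0.779) with F-MTAza, -7.92 points (SE 5.86, adjusted p = 0.379) with NP-MTAza and -14.9 points (SE 8.29, adjusted p = 0.302) with Aza. Slc12a1 (chr2:124978241-125055738, plus strand) encodes the cotransporter of sodium, potassium and chloride that loop diuretics block, and its promoter was valued in 9 libraries, at 74.9 to 75.8% in PBS, 29.7 and 70.8% in the 2 F-MTAza libraries, 40 to 55.4% in NP-MTAza and 44.1% in the Aza library. All 6 treated values lay below the 3 PBS values, and they were not tested. The Cldn16 promoter was valued in 4 libraries and that of Cldn10 in 1.

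The deepest loss of any member body with both combinations was that of the thick limb gene Cldn16. This body rested on 28 to 180 reads at 4 to 18 CpGs in a library. Cldn16 (chr16:26463221-26482851, plus strand) encodes a claudin that lets magnesium and calcium pass between cells, and its body stood at 92.7, 100 and 89.4% in PBS, 60.4, 46.8 and 31.5% in F-MTAza, 44.9, 49.5 and 53.5% in NP-MTAza and 57.7% in the Aza library. It fell by 47.8 points (SE 6.62, adjusted p = 0.000262) with F-MTAza, fell by 44.8 points (SE 6.62, adjusted p = 0.000339) with NP-MTAza and fell by 36.4 points (SE 9.36, adjusted p = 0.00733) with Aza. The 2 combinations together kept 50.8% of its PBS level, which placed it at the 2.20 percentile of all bodies at 50% or more in PBS. The Slc12a1 body stood at 77.3, 83.9 and 80.0% in PBS, 53.5, 45.2 and 46.8% in F-MTAza, 53.2, 47.6 and 47.7% in NP-MTAza and 50.3% in the Aza library, with a wide gap between PBS and all treated libraries. Umod (chr7:126606380-126622769, minus strand) had a body at 66.5, 51.1 and 62.9% in PBS, 34.3, 46.8 and 28.3% in F-MTAza, 21.5, 34.8 and 34.7% in NP-MTAza and 38.8% in the Aza library. It fell by 23.7 points (SE 6.08, adjusted p = 0.00666) with F-MTAza and fell by 29.8 points (SE 6.08, adjusted p = 0.00172) with NP-MTAza, and the Aza difference of -21.3 points (SE 8.60, adjusted p = 0.0536) was not called. It was called in the fits without PBS replicate 2, F-MTAza replicates 2 or 3 or NP-MTAza replicate 1, and under 5 other settings, where it was -30.02 points over the CpGs read in all 10 libraries (adjusted p 0.0175).

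Kcnj1 (chr9:32180003-32206777, plus strand), the potassium channel through which the thick limb recycles potassium, had a body at 71.6, 67.4 and 76.9% in PBS, 63.1, 43.1 and 44.95% in F-MTAza, 44.2, 52.9 and 46.0% in NP-MTAza and 45.8% in the Aza library. Cldn10 (chr14:119187093-119274711, plus strand), a claudin of the sodium path between cells, had one at 80.6, 79.9 and 77.2% in PBS, 61.5, 55.4 and 62.8% in F-MTAza, 52.1, 56.0 and 50.0% in NP-MTAza and 49.9% in the Aza library. Both lay below PBS in every treated library and were called with all 3 treatments. The body of Ptger3 was at 60.0, 44.6 and 58.7% in PBS, 35.8, 39.6 and 32.6% in F-MTAza, 31.1, 30.6 and 39.3% in NP-MTAza and 46.5% in the Aza library. It was called with both combinations, with an NP-MTAza difference of -15.1 points that was not called with the libraries of 1 set of barcodes (adjusted p 0.0901), and an F-MTAza difference of -12.96 points that was not called over CpGs with 10 or more reads (adjusted p 0.164). Over the CpGs read in all 10 libraries its differences were -5.15 and -6.54 points and neither call remained. Bsnd (chr4:106156061-106164888, minus strand), whose product barttin is a subunit of chloride channels, had body values in 9 libraries, at 34.8 to 66.2% in PBS and 40 to 49.1% over both combinations, with the treated values inside the PBS range.

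In the distal tubule group the promoters of Kcnj10, Calb1 and Trpm6 were tested, and all 3 fell with NP-MTAza, with Kcnj10 and Trpm6 also called with F-MTAza and Aza. Trpm6 (chr19:18824473-18967000, plus strand) encodes the channel for magnesium uptake. Its promoter was the most methylated of the 15 and held close values between replicates, at 95.9, 96.7 and 96.9% in PBS, 76.9, 66.6 and 64.6% in F-MTAza, 64.3, 70.1 and 69.03% in NP-MTAza and 65.0% in the Aza library. It fell by 27.2 points (SE 3.25, adjusted p = 0.000969) with F-MTAza, fell by 28.7 points (SE 3.25, adjusted p = 0.000755) with NP-MTAza and fell by 31.6 points (SE 4.60, adjusted p = 0.0073) with Aza. Every treated library lay far below every PBS library, and all 3 calls held whichever library was left out.

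Kcnj10 (chr1:174271341-174304216, plus strand) encodes a potassium channel of the basolateral membrane. Promoter levels were 83.0, 87.1 and 75.4% in PBS, 57.3, 50.7 and 57.6% in F-MTAza, 62.2, 73.3 and 46.6% in NP-MTAza and 49.8% in the Aza library, with NP-MTAza replicate 2 close to PBS replicate 3. The level fell by 26.6 points (SE 6.54, adjusted p = 0.0142) with F-MTAza, fell by 21.1 points (SE 6.54, adjusted p = 0.0331) with NP-MTAza and fell by 32.0 points (SE 9.25, adjusted p = 0.0499) with Aza. Without PBS replicate 2 the F-MTAza call was lost, 4 of 9 fits with a library left out lost the NP-MTAza call (without PBS replicates 1 or 2 or NP-MTAza replicates 1 or 3), and the Aza call remained only without NP-MTAza replicates 2 or 3, with adjusted p of 0.00917 to 0.0557, 0.0165 to 0.113 and 0.034 to 0.106 over those fits.

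Calb1 (chr4:15808411-15835211, plus strand) encodes calbindin, which carries calcium through the cell. At the promoter the libraries gave 93.9, 95.5 and 90.9% in PBS, 84.8, 85.5 and 70.2% in F-MTAza, 48.0, 66.7 and 83.6% in NP-MTAza and 84.1% in the Aza library, so the treated libraries were scattered widely below a narrow PBS range. The level fell by 27.4 points (SE 8.56, adjusted p = 0.0175) with NP-MTAza and differed by -13.3 points (SE 8.56, adjusted p = 0.136) with F-MTAza and -9.32 points (SE 12.1, adjusted p = 0.501) with Aza. The call rested on several libraries and was lost without PBS replicates 1 or 2 or NP-MTAza replicates 1 or 2 (adjusted p 0.00827 to 0.0679). With NP-MTAza replicate 3 as its only library, since the labels give 2 sets of barcodes for the other 2, the difference was -9.86 points. The Calb1 body differed more between PBS libraries than any other member body, at 53.5, 13.6 and 73.2% in PBS, 27.6, 20.3 and 34.97% in F-MTAza, 23.8, 21.5 and 21.3% in NP-MTAza and 10.0% in the Aza library. It was not called in any comparison with all PBS libraries, at -19.1 points (SE 12.5, adjusted p = 0.212), -24.5 points (SE 12.5, adjusted p = 0.108) and -36.8 points (SE 17.6, adjusted p = 0.0693) with F-MTAza, NP-MTAza and Aza, and was called in all 3 without PBS replicate 2.

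The other 5 distal bodies fell with every treatment. Slc12a3 (chr8:96853092-96890113, plus strand) encodes the sodium and chloride cotransporter that thiazides block, and its body stood at 87.7, 91.3 and 86.7% in PBS, 70.0, 63.5 and 61.1% in F-MTAza, 53.1, 60.6 and 52.9% in NP-MTAza and 55.8% in the Aza library. Egf (chr3:129380493-129458240, minus strand), a growth factor made in this segment, had a body at 78.9, 91.6 and 85.4% in PBS, 60.7, 41.5 and 45.5% in F-MTAza, 54.4, 49.3 and 44.3% in NP-MTAza and 48.4% in the Aza library. In both genes the treated libraries were all well below the lowest PBS library. The Trpm6 body was even between replicates, at 88.7, 88.4 and 85.1% in PBS, 55.8, 58.7 and 57.7% in F-MTAza, 60.0, 54.1 and 55.9% in NP-MTAza and 56.6% in the Aza library, and the Kcnj10 body went from 73.9% ± 3.98 in PBS to 49.7% ± 1.88 in F-MTAza and 46.7% ± 1.62 in NP-MTAza. Pvalb (chr15:78021544-78036830, minus strand) encodes parvalbumin, a calcium binding protein of the first distal cells, and its body was at 47.8, 48.9 and 55.1% in PBS, 33.1, 33.7 and 36.6% in F-MTAza, 21.1, 34.1 and 36.9% in NP-MTAza and 27.96% in the Aza library. Over the CpGs read in all 10 libraries the Pvalb body differed by -1.71, -5.39 and -1.91 points with F-MTAza, NP-MTAza and Aza, and none of its 3 calls remained. The promoters of Egf, valued in 8 libraries at 23.7 to 50.0% in PBS and 9.52 to 24.7% in NP-MTAza, and of Pvalb, valued in 9 at 35.2 to 50.0% and 31.8 to 45.1%, were not tested.

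The principal cell group gave the most tested promoters, 7 of 10, and 5 of them, those of Aqp2, Aqp3, Aqp4, Scnn1a and Cldn8, fell with both combinations. Aqp3 (chr4:41039755-41045216, minus strand) forms the basolateral path by which water leaves the cell. Its promoter stood at 76.7, 80.6 and 76.6% in PBS, 50.3, 49.6 and 47.9% in F-MTAza, 47.0, 47.7 and 48.6% in NP-MTAza and 52.9% in the Aza library, with closely agreeing replicates in PBS and both combinations. These values rested on 1081 to 2903 reads at only 7 to 25 CpGs in a library. That is far deeper per CpG than the library medians of 7 to 9 reads, and the reason was not tested. The level fell by 28.7 points (SE 1.47, adjusted p = 0.00123) with F-MTAza, fell by 30.2 points (SE 1.47, adjusted p = 0.00084) with NP-MTAza and fell by 25.01 points (SE 2.07, adjusted p = 0.0157) with Aza, and none of these calls depended on 1 library. With each CpG counted equally the Aza difference shrank to -9.37 points and was not called.

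Aqp4 (chr18:15547903-15562193, minus strand), the other basolateral water channel, rested on 16 to 108 reads in a library. The promoter held 73.5, 60.4 and 76.9% in PBS, 39.4, 19.5 and 37.5% in F-MTAza, 25, 57.4 and 36.8% in NP-MTAza and 38.7% in the Aza library, with NP-MTAza replicate 2 close to the lowest PBS library. It fell by 38.1 points (SE 9.26, adjusted p = 0.0126) with F-MTAza and fell by 30.5 points (SE 9.26, adjusted p = 0.0305) with NP-MTAza, and differed by -31.5 points (SE 13.1, adjusted p = 0.142) with Aza. The NP-MTAza call was lost without PBS replicates 1 or 3 or NP-MTAza replicates 1 or 3 (adjusted p 0.0134 to 0.107). Aqp2 (chr15:99409487-99414976, plus strand) forms the apical water channel that vasopressin brings to the membrane. The promoter was at 85.6, 83.7 and 86.2% in PBS, 76.9, 69.6 and 37.9% in F-MTAza, 59.7, 59.8 and 58.2% in NP-MTAza and 59.7% in the Aza library, so NP-MTAza was even and F-MTAza spread over a wide range, with replicate 3 lowest. It fell by 23.7 points (SE 8.94, adjusted p = 0.0497) with F-MTAza and fell by 25.9 points (SE 8.94, adjusted p = 0.0326) with NP-MTAza, both near the threshold, and differed by -25.5 points (SE 12.6, adjusted p = 0.164) with Aza. With 1 library left out the F-MTAza call remained only without F-MTAza replicate 1 and the NP-MTAza call only where the library left out was an F-MTAza replicate, with adjusted p of 0.0203 to 0.111 and 0.00196 to 0.0912, although no treated library reached the PBS range.

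The 3 subunits of the epithelial sodium channel differed in what could be read. Scnn1a (chr6:125271358-125294958, plus strand), the subunit the channel cannot do without, had a promoter at 97.4, 95.7 and 91.1% in PBS, 38.0, 62.7 and 70.5% in F-MTAza, 73.3, 68.8 and 50.5% in NP-MTAza and 53.3% in the Aza library. It fell by 37.6 points (SE 9.07, adjusted p = 0.00506) with F-MTAza, fell by 30.5 points (SE 9.07, adjusted p = 0.00906) with NP-MTAza and fell by 41.4 points (SE 12.8, adjusted p = 0.0298) with Aza, and the Aza call was lost without PBS replicate 1 or PBS replicate 2 (adjusted p 0.0163 to 0.07). The treated libraries ranged widely but none came near PBS. Scnn1g (chr7:128877993-128911989, plus strand) had little promoter methylation, at 21.3, 12.8 and 23.5% in PBS, 8.51, 12.4 and 22.6% in F-MTAza, 14.4, 13.1 and 10.2% in NP-MTAza and 15% in the Aza library, with overlapping groups and differences of -4.71 points (SE 4.17, adjusted p = 0.439), -6.65 points (SE 4.17, adjusted p = 0.316) and -4.21 points (SE 5.89, adjusted p = 0.735). The Scnn1b promoter was valued in 6 libraries, at 54.2 to 98.7% in PBS and 47.1 and 60.2% in 2 NP-MTAza libraries, and was not tested.

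Hsd11b2 (chr8:108042646-108047884, plus strand) inactivates glucocorticoids and so keeps the mineralocorticoid receptor for aldosterone. Its promoter was the least methylated of the 15, at 16.0, 17.1 and 7.62% in PBS, 2.94, 5.36 and 12.0% in F-MTAza, 10.6, 5.63 and 17.8% in NP-MTAza and 6.81% in the Aza library. Both combinations overlapped PBS and the Aza library lay just below it. The differences were -6.81 points (SE 4.07, adjusted p = 0.227), -2.23 points (SE 4.07, adjusted p = 0.712) and -6.76 points (SE 5.76, adjusted p = 0.53). Cldn8 (chr16:88561073-88563428, minus strand), a claudin of the collecting duct, had a promoter at 85.5, 93.3 and 82.8% in PBS, 52.9, 72.6 and 60.5% in F-MTAza, 58.7, 56.2 and 63.5% in NP-MTAza and 66.3% in the Aza library. It fell by 25.2 points (SE 5.18, adjusted p = 0.0084) with F-MTAza and fell by 27.7 points (SE 5.18, adjusted p = 0.00513) with NP-MTAza in all fits with a library left out, and differed by -20.9 points (SE 7.32, adjusted p = 0.0936) with Aza. The promoters of Elf5 and Krt7 were read in part, in 6 and 5 libraries, and neither was tested.

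Of the 9 principal cell bodies 8 fell with F-MTAza, 9 with NP-MTAza and 7 with Aza. The Aqp3 body stood at 87.6, 88.9 and 89.9% in PBS, 70.6, 69.6 and 63.2% in F-MTAza, 62.3, 52.7 and 62.6% in NP-MTAza and 42.7% in the Aza library, with the Aza library below all the others. The Aqp2 body kept more than most, at 78.2, 86.6 and 82.4% in PBS, 67.5, 57.1 and 71.8% in F-MTAza, 57.2, 63.1 and 62.9% in NP-MTAza and 57.0% in the Aza library, and its 76.8% retained in the combinations was at the 95.4 percentile of all bodies at 50% or more in PBS. The Aqp4 body, at 92.9, 75 and 93.3% in PBS, 58.2, 60.3 and 33.8% in F-MTAza, 45.2, 39.7 and 64.7% in NP-MTAza and 62.7% in the Aza library, was called with both combinations and not with Aza, where it differed by -24.4 points (SE 12.8, adjusted p = 0.0729). With NP-MTAza replicate 3 as the only library of its group the Aqp4 body differed by -22.3 points, against -37.2 with all 3, and the NP-MTAza call was lost (adjusted p 0.102). The Aza difference was called by the quasi-binomial model (adjusted p 0.015), with all 12 libraries, where it was -33.1 points (adjusted p 0.00294), and without PBS replicate 2 or F-MTAza replicate 3.

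For the sodium channel, the Scnn1g body stood at 85.04, 88.2 and 82.9% in PBS, 42.1, 46.0 and 64.4% in F-MTAza, 37.4, 37.6 and 58.3% in NP-MTAza and 48.0% in the Aza library. It rested on 19 to 415 reads at 3 to 45 CpGs in a library. The Scnn1b body (chr7:129008591-129062029, plus strand), which lies partly over Cog7, went from 82.3% ± 1.07 in PBS to 56.7% ± 5.13 in F-MTAza and 55.3% ± 3.73 in NP-MTAza, and the Scnn1a body from 81.9% ± 5.97 to 57.2% ± 2.61 and 59.7% ± 6.33. The gamma subunit thus had a body far above its own promoter in PBS, and every body of the 3 subunits was called with every treatment. Elf5 (chr2:103251845-103291146, plus strand), a transcription factor of principal cells, had a body at 72.4, 88.1 and 79.9% in PBS, 50.6, 40.8 and 56.5% in F-MTAza, 49.5, 46.9 and 47.1% in NP-MTAza and 42.0% in the Aza library, with no overlap between PBS and treated libraries. The Hsd11b2 body stood at 69.8, 72.8 and 79.0% in PBS, 40.8, 55.4 and 42.9% in F-MTAza, 34.6, 50.7 and 43.0% in NP-MTAza and 54.5% in the Aza library, well apart from PBS in each combination, while its Aza call was lost without PBS replicate 2, PBS replicate 3 or NP-MTAza replicate 3 (adjusted p 0.0247 to 0.0753). With each CpG counted equally the Aza difference shrank from -19.3 to -5.86 points (adjusted p 0.462), and by the quasi-binomial model it was not called either (adjusted p 0.109).

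Krt7 (chr15:101241474-101260744, plus strand), a keratin of the collecting duct, had the least methylated body of the 28, at 34.6, 42.5 and 25.3% in PBS, 29.7, 27.9 and 26.8% in F-MTAza, 15.7, 27.2 and 18.9% in NP-MTAza and 24.5% in the Aza library. It fell by 13.5 points (SE 4.62, adjusted p = 0.0201) with NP-MTAza, was lost as a call without PBS replicate 2 or NP-MTAza replicates 1 or 3 (adjusted p 0.00461 to 0.0742), and differed by -6.00 points (SE 4.62, adjusted p = 0.273) with F-MTAza and -9.60 points (SE 6.53, adjusted p = 0.21) with Aza. Within that body the CpGs fell into 2 kinds, described here after their values were seen. The 15 CpGs from 1585 to 1767 bp, close to a coding transcript start at 1359 bp, stood at 13.04% ± 3.01 in PBS, 7.34% ± 5.96 in F-MTAza and 3.71% ± 2.01 in NP-MTAza, whereas 9 CpGs from 9498 to 12757 bp stood at 95.4% ± 2.31, 61.8% ± 4.16 and 65.1% ± 8.13.

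The intercalated cell genes gave 1 tested promoter, that of Slc26a4, and 3 tested bodies. Slc26a4 (chr12:32204692-32244834, minus strand) encodes pendrin, the exchanger of chloride and bicarbonate in the cells that secrete base. Its promoter stood at 50.6, 28.6 and 39.3% in PBS, 24.7, 33.3 and 30% in F-MTAza, 100, 18.0 and 19.3% in NP-MTAza and 36.2% in the Aza library. The 100% in NP-MTAza replicate 1 rested on 15 reads at 3 CpGs, with a 95% Wilson interval of 79.6 to 100%. The difference was 6.29 points (SE 20.7, adjusted p = 0.691) with NP-MTAza, and without that library it was -20.8 points with an adjusted p of 0.0486. With F-MTAza it was -10.1 points (SE 20.7, adjusted p = 0.772) and with Aza -3.27 points (SE 29.3, adjusted p = 0.964).

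The Slc26a4 body stood at 83.9, 72.8 and 73.3% in PBS, 51.9, 50.9 and 44.98% in F-MTAza, 57.5, 53.4 and 49.2% in NP-MTAza and 45.1% in the Aza library, and that of Slc4a1 (chr11:102210138-102227517, minus strand), the anion exchanger of the cells that secrete acid, at 74.7, 69.8 and 71.3% in PBS, 53.4, 42.8 and 52.9% in F-MTAza, 59.4, 43.5 and 45.2% in NP-MTAza and 43.2% in the Aza library. Both fell with all 3 treatments. The first coding Slc4a1 transcript starts 923 bp downstream of the gene start. Atp6v1b1 (chr6:83693011-83708803, plus strand), a subunit of the proton pump, had a body at 69.6, 46.2 and 46.2% in PBS, 26.7, 49.3 and 69.6% in F-MTAza, 38.6, 44.3 and 46.4% in NP-MTAza and 44.8% in the Aza library. Both combinations overlapped PBS and the Aza library lay just below it. None of the body's differences was called, at -5.51 points (SE 10.3, adjusted p = 0.614), -10.9 points (SE 10.3, adjusted p = 0.336) and -9.24 points (SE 14.6, adjusted p = 0.563). Its 84.8% retained was at the 99.1 percentile of all bodies at 50% or more in PBS. This summed level rested on 71 to 289 reads at 11 to 38 CpGs in a library. In this body 3 CpGs from 7158 to 7200 bp were at 0% in every PBS, F-MTAza and NP-MTAza library. Another 5 CpGs from 13566 to 14644 bp stood at 93.4% ± 3.03 in PBS, 74.2% ± 10.1 in F-MTAza and 43.6% ± 9.18 in NP-MTAza. They rested on 11 to 109 reads in a library. Over both combinations these 5 CpGs kept 63.0% of their PBS level, beside a median of 64.7% over all bodies at 50% or more in PBS.

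Single CpGs show where within a promoter the level moved, again as a description chosen after the values were seen. In Hsd11b2, 16 CpGs from 112 to 266 bp downstream of the start stood at 1.57% ± 0.864 in PBS, 1.47% ± 0.528 in F-MTAza and 2.26% ± 1.63 in NP-MTAza. In the same promoter 3 CpGs from 1570 to 1262 bp upstream stood at 79.7% ± 10.6, 39.5% ± 12.2 and 46.1% ± 9.51. These 3 CpGs rested on only 6 to 38 reads in a library. The summed level of this promoter therefore joins a stretch with almost no methylation to one that was highly methylated in PBS.

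In Scnn1g, 11 CpGs around the start, from 95 bp upstream to 128 bp downstream, stood at 10.8% ± 2.58, 5.61% ± 6.62 and 8.75% ± 2.58. In the Calb1 promoter 16 CpGs from 20 to 104 bp downstream were almost fully methylated, at 97.6% ± 1.51 in PBS, 87.8% ± 5.19 in F-MTAza and 76.9% ± 12.1 in NP-MTAza. In Wt1 the stretches gave unlike values, and their difference was not tested. The 12 CpGs from 1951 to 1182 bp upstream went from 73.4% ± 6.01 to 42.7% ± 7.53 and 47.7% ± 7.11, while the 16 CpGs from 391 to 500 bp downstream went from 93.2% ± 0.666 to 88.3% ± 1.25 and 77.8% ± 5.38. Trpm6, in contrast, gave close values on both sides of its start, with 21 CpGs from 831 to 148 bp upstream going from 97.1% ± 1.21 to 68.8% ± 11.0 and 67.4% ± 6.24 and 11 CpGs from 17 to 403 bp downstream from 96.1% ± 1.71 to 71.7% ± 2.26 and 68.3% ± 5.07.

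**Figure D4:**
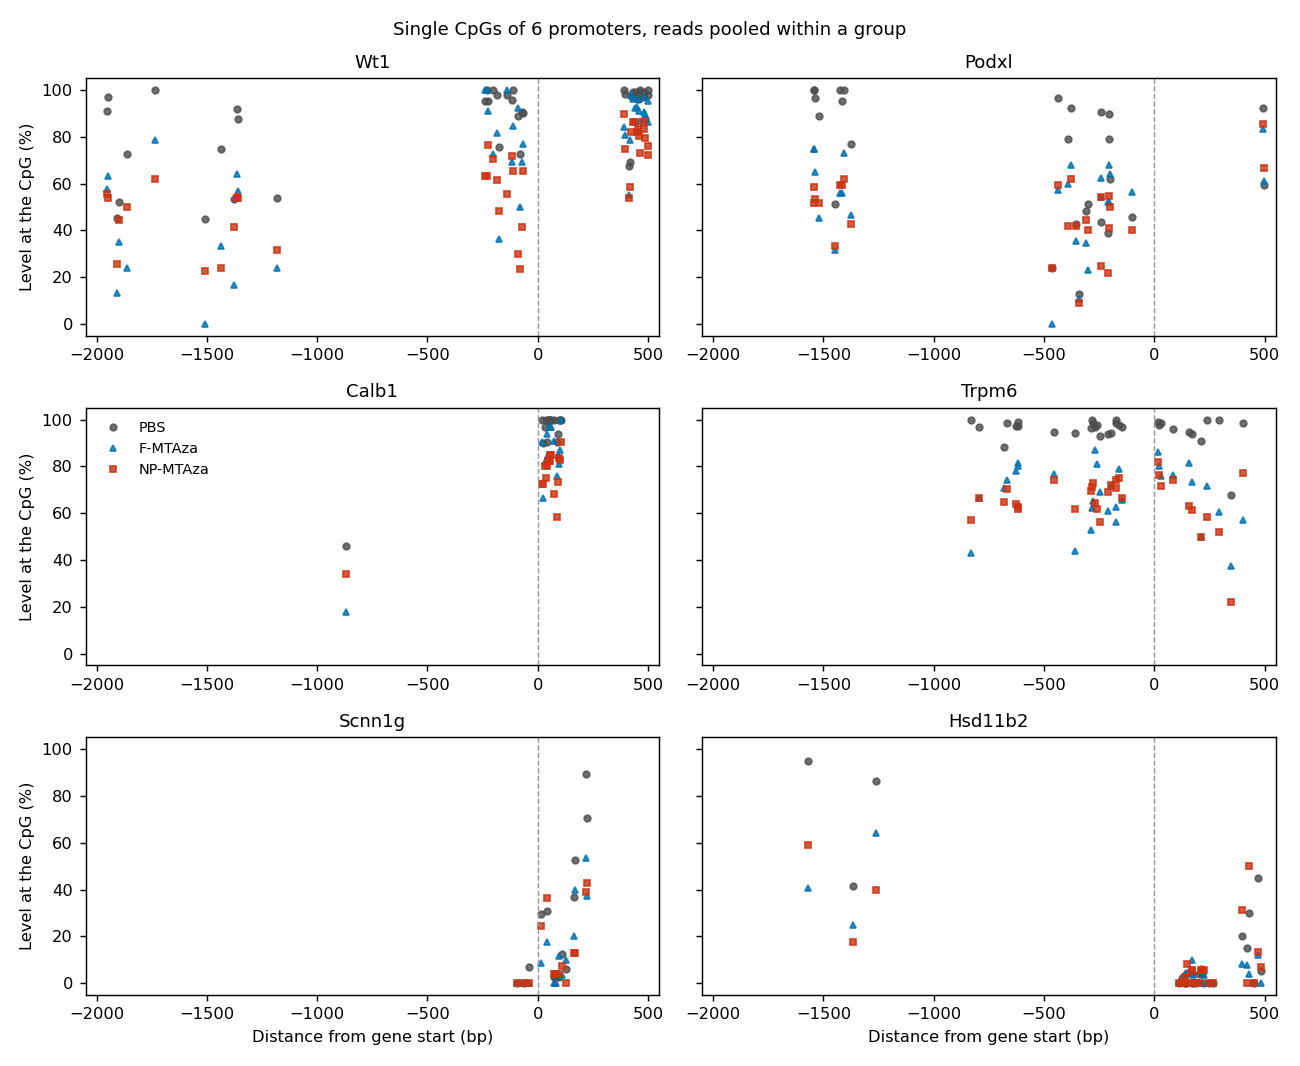
Methylation in percent (y axis) of single CpGs against their distance from the gene start in bp (x axis) at the promoters of Wt1, Podxl, Calb1, Trpm6, Scnn1g and Hsd11b2, for CpGs listed in at least 8 of 10 libraries, with reads pooled by group and a colour per group. The Hsd11b2 CpGs from 112 to 266 bp downstream lie near 0 in every group, and those of Trpm6 lie near 97% in PBS and near 68% in both combinations.

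Relative to the level in PBS, most members at 50% or more lay within the range of other genes. The combinations retained 51.2% (Aqp4) to 78.3% (Calb1) of the PBS level at the 10 member promoters, against a median of 68.8% and a range from the 10th to the 90th percentile of 56.3 to 80.6% over all such promoters. For bodies the median over all genes was 64.7%, with 57.2 to 72.9% between those percentiles. The member bodies spanned 50.8% (Cldn16) to 84.8% (Atp6v1b1). Outside those percentiles lay the promoter of Aqp4 and the bodies of Cldn16, Umod and Scnn1g below and of Aqp2 and Atp6v1b1 above. In the same order, their shallowest library held 16, 28, 79, 19, 110 and 71 reads.

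The comparison of carriers asked whether the micelles changed what the free drugs did. No member promoter or body was called between NP-MTAza and F-MTAza, and no other gene was, with 0% called both among 11686 promoters and among 15529 bodies by limma and 0 by the quasi-binomial model, which recovered fewer of the changes set in simulated data than limma did. At an unadjusted p under 0.05 there were 0 of 15 member promoters beside 556 of all, and 4 of 28 member bodies beside 852 of all. The median difference, NP-MTAza minus F-MTAza, was -1.55 points at member promoters and -3.29 at member bodies, against -0.179 and -1.54 points over all genes. In no member promoter, and in 2 of the 28 bodies, did the 3 libraries of one carrier lie entirely apart from the 3 of the other. The same share over all genes was not counted, so this is a description only. With 3 libraries a side the SE of this difference was, for example, 3.25 points at the Trpm6 promoter and 8.56 points at the Calb1 promoter. Differences well above their SE also went uncalled, as at the Calb1 promoter (-14.1 points) and the Slc12a3 body (-9.35 points, SE 3.37). The absence of calls therefore does not show that the 2 carriers acted alike.

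Whether metformin and tolvaptan added to Aza was asked by setting the 6 libraries of both combinations against the Aza library. Again no member and no gene was called, with 0% of promoters and 0% of bodies by limma. At an unadjusted p under 0.05 there were 0 of 15 member promoters beside 273 of all, and 1 of 28 member bodies beside 538 of all. With Aza replicates 1 and 2 added, 0 members but 4797 of 10167 promoters over all genes were called. The body that passed the unadjusted threshold was that of Aqp3, named after its value was seen, where the combinations stood 20.8 points above the Aza library (SE 4.53, adjusted p = 1). The median difference, combination minus Aza, was -0.119 points at member promoters and 3.01 at member bodies. The 2 combinations and Aza were all set against the same PBS libraries, so their losses against PBS are not independent of each other.

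Other genes of the same segments, and of the proximal tubule, were read the same way. Of 30 proximal tubule genes 13 had a tested promoter, with a median PBS level of 63.4%, and 9 fell with F-MTAza, 8 with NP-MTAza and 4 with Aza, beside 23, 25 and 11.3% of all promoters. None of those 13 rose. All promoters had a median PBS level of 16.2%, and the shares set beside this and the next lists were not split by that level. Hnf4a, a transcription factor on which the proximal tubule depends, stood at 86.8% ± 6.89 at its promoter in PBS, 38.0% ± 2.03 in F-MTAza and 48.4% ± 3.90 in NP-MTAza. Slc22a8, an organic anion transporter, went from 84.3% ± 4.82 to 45.4% ± 3.44 and 44.3% ± 2.29. Other promoters of this list, named after their values were seen, stood low in PBS, with 6.68% ± 2.08 at Slc4a4, a cotransporter of sodium and bicarbonate, 19.6% ± 9.96 at Ass1, an enzyme of arginine synthesis, and 22.8% ± 5.54 at Lrp2, the uptake receptor megalin. Of the 26 tested bodies of the list 25 fell with each treatment, beside 84.7, 87.2 and 80.2% of all bodies.

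Further genes of the other segments gave 25 tested promoters, of which some fell in every segment, where 23, 25 and 11.3% of all promoters fell with F-MTAza, NP-MTAza and Aza. Other podocyte promoters fell at 2 of 6 with F-MTAza, 4 of 6 with NP-MTAza and 1 of 6 with Aza, and Magi2, a scaffold of the slit diaphragm, fell by 30.1 points (SE 8.27, adjusted p = 0.0296) and fell by 32.2 points (SE 8.27, adjusted p = 0.0225) with the 2 combinations, while Foxc2, a transcription factor, fell by 16.5 points (SE 2.05, adjusted p = 0.0111) and fell by 17.4 points (SE 2.05, adjusted p = 0.00789). In the thick limb 1, 2 and 1 of 4 fell, with Tmem207 falling from 73.9% ± 1.78 to 46.0% ± 2.27 and 47.2% ± 4.64, and in the distal tubule 1, 2 and 0 of 5, where the median PBS level was 6.22%. Klhl3, which controls the breakdown of kinases that act on the thiazide sensitive cotransporter, fell by 30.7 points (SE 6.33, adjusted p = 0.00924) and fell by 34.4 points (SE 6.33, adjusted p = 0.00515). In the other lists the median PBS level was higher, at 61.1% for podocytes, 48.7% for the thick limb, 76.0% for principal cells and 52.8% for intercalated cells.

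Of other principal cell promoters 4 of 7 fell with each treatment, and Fxyd4, a regulator of the sodium pump, went from 92.5% ± 1.99 in PBS to 57.6% ± 9.24 in F-MTAza and 57.1% ± 3.47 in NP-MTAza. Gata3, a transcription factor of the duct, fell by 28.2 points (SE 3.25, adjusted p = 0.00255) and fell by 27.3 points (SE 3.25, adjusted p = 0.00231). Kcne1, a potassium channel subunit, went from 88.9% ± 5.07 to 60.7% ± 6.40 and 59.6% ± 9.31. Of 3 other intercalated cell promoters 1 fell with each treatment, that of Aqp6, a water channel of intracellular vesicles, which went from 71.3% ± 1.63 to 40.7% ± 7.01 and 47.9% ± 4.18. The bodies of these other genes fell at 8, 8 and 8 of 8 for podocytes, 5, 6 and 6 of 8 for the thick limb, 6, 6 and 6 of 7 for the distal tubule, 8, 8 and 7 of 9 for principal cells and 11, 11 and 10 of 12 for intercalated cells, with F-MTAza, NP-MTAza and Aza in that order, beside 84.7, 87.2 and 80.2% of all bodies. The widest body losses of each list, as the mean of both combinations against PBS, were as follows. Among proximal tubule genes Pck1, an enzyme of gluconeogenesis, fell by 41.7 points, Slc22a12, the urate transporter, fell by 34.8 points and Fbp1, another enzyme of gluconeogenesis, fell by 32.9 points. The podocyte genes Cd2ap, Kirrel and Plce1, which serve the slit diaphragm or its signalling, fell by 37.2 points, fell by 28.7 points and fell by 28.7 points. The thick limb genes Tmem207, Cldn19 and Cldn14, the last 2 encoding claudins, fell by 39.8 points, fell by 30.9 points and fell by 25.5 points.

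In the distal tubule Stk39, a kinase that acts on salt cotransporters, fell by 31.6 points, Slc8a1, which exchanges sodium for calcium, fell by 30.9 points and Klhl3 fell by 24.9 points. Among principal cell genes Kcne1 fell by 39.5 points, Fxyd4 fell by 33.4 points and Hsd17b2, a steroid dehydrogenase, fell by 26.7 points. The proton pump subunits Atp6v0a4, Atp6v1g3 and Atp6v0d2 of intercalated cells fell by 30.9 points, fell by 29.9 points and fell by 29.7 points. All of these bodies were called with both combinations.

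Avpr2 encodes the vasopressin receptor that tolvaptan blocks. Its promoter had no value in any library, and its body, valued in 8 of 10, stood at 85.9 and 87.9% in PBS replicates 1 and 2, 61.1, 44.1 and 79.5% in F-MTAza, 54.7 and 70.4% in NP-MTAza replicates 2 and 3 and 72.6% in the Aza library. All treated values lay below the PBS values, and they were not tested.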

How the data were processed

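Genomic DNA of 12 libraries was read by reduced representation bisulfite sequencing. Per the labels and the study's methods, trimming (Trim Galore 0.4.4) was followed by alignment to mm9 (Bismark 0.20.1 with Bowtie2), both strands of a CpG were merged, and CpGs under 5 reads were dropped by the authors. Each deposited table lists, per CpG, the methylated and total reads as text and a percent that the authors rounded down. The read numbers were used, and the percent column was not. Depth per library is given above, and intervals cover counting error only.

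Reads of a promoter (2000 bp upstream to 500 bp downstream of the gene start) or body were summed per library over CpGs of GENCODE M1 genes, with at least 3 CpGs required. Limma 3.58.1 in R 4.3.3 tested the arcsine square root of the level, without a replicate block, over all genes valued in all 10 libraries, with Benjamini-Hochberg adjustment per kind of region. A call needed an adjusted p under 0.05 and 10 points, and SEs are in percentage points. Sums, intervals and sequences used Python 3.11.15, numpy 2.4.6, pandas 2.3.3, scipy 1.17.1 and pysam 0.24.0, and figures matplotlib 3.10.9. The test was tried on simulated data. The members and lists were chosen with earlier results of these data known. All members are described, with values per library at least for the 3 largest differences and the smallest in each segment, and up to 3 genes of each other list with the largest difference among those called with both combinations are named, with Avpr2. 1 gene that this rule names is not reported here. Alternatives changed the scale, depth, CpG set, weighting, window, libraries, block, test and threshold. Transcript data and the other assays of the study were not analysed here.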

Additional observations from a re-analysis of the deposited data

Results flagged for a closer look

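In the 2 Aza libraries left out of the comparisons, 4 of the 15 marker promoters stood above every PBS library in both. They were Nphs1 at 35.4 and 55.3% in Aza replicates 1 and 2 against 25.5 to 32.1% in PBS, Ptger3 at 55.0 and 54.2% against 33.1 to 44.8%, Scnn1g at 33.3 and 52.6% against 12.8 to 23.5%, and Hsd11b2 at 24.2 and 58.2% against 7.62 to 17.1%. Each is among the promoters under 50% in PBS. None of 27 marker bodies valued in these libraries did so. Over all genes both libraries lay above every PBS library at 54.6% of 11311 promoters and 5.05% of 15295 bodies. Those shares were not split by the level in PBS. In the main fit 10 of 15 marker promoters stood at 50% or more in PBS, against 29.9% of all promoters, so the shares cannot be compared directly. These values were not tested.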

How the results depend on the processing

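The direction of the called losses held, while the number of promoter calls depended on depth, libraries and the set of CpGs. Over all tested members and alternatives, 3 of 281 promoter differences changed sign with F-MTAza, 6 of 281 with NP-MTAza and 9 of 281 with Aza, and 2, 0 and 3 of 507 body differences did. With CpGs of 10 or more reads, 4 promoters were tested and 4, 3 and 2 fell with F-MTAza, NP-MTAza and Aza, and of 16 bodies 13, 16 and 13 fell. Among members still tested there, calls ended for the Nphs1 promoter with NP-MTAza (-10.2 points, adjusted p = 0.107), the Ptger3 body with F-MTAza and the Pvalb body with F-MTAza (adjusted p = 0.0796) and Aza (-17.2 points, adjusted p = 0.238). With all 12 libraries 0 of 14 promoters fell with F-MTAza and 0 of 14 with NP-MTAza. On the scale of percentage points 7 promoters fell with NP-MTAza and 2 with Aza, over CpGs shared by all 10 libraries 7 of 12 and 2 of 12, and with each CpG counted equally 2 with Aza. With libraries of 1 set of barcodes, an alternative chosen after seeing the data, 3 of 16 fell with NP-MTAza and 2 with Aza. The causes of these shifts were not tested, and the counts over all genes are not given for most of these alternatives, for promoters or bodies. Leaving out 1 library gave 6 to 9 promoters with F-MTAza, 6 to 12 with NP-MTAza and 2 to 5 with Aza, and 24 to 26, 25 to 26 and 21 to 24 bodies.

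For the Slc26a4 promoter the NP-MTAza difference ran from -20.8 points without NP-MTAza replicate 1, where it was called, to 20.2 points without NP-MTAza replicate 2, and the main value was 6.29 points. Same-numbered libraries did not visibly deviate together (correlations of -0.123 to 0.0486 between their deviations from the group means). With 3 libraries a group this cannot tell whether same-numbered libraries were handled together. With the replicate number as a block 8 promoters fell with F-MTAza, 10 with NP-MTAza and 1 with Aza, and 25, 26 and 23 bodies. NP-MTAza against F-MTAza, and the combinations against Aza, gave 0 member calls under every alternative that was run. The quasi-binomial model was not run for the combinations against Aza, and the shorter promoter window does not apply to bodies. Of the 30 promoters 15 were not valued in all 10 libraries and so were not tested.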
